A study of Mus musculus with 20 samples.

Results

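The apical transporters described here are 9 genes of 5 solute carrier (SLC) families: Slc13a1, Slc13a2, Slc28a1, Slc28a2, Slc47a1, Slc5a6, Slc5a8, Slc26a3 and Slc26a6. They were chosen from the gene-level values of these same mice over the 4 groups, and which comparison guided the choice is not recorded, so counts of members past a threshold are a description of the set and support nothing further. The gene table held 35204 genes, of which 16306 reached 0.5 CPM (read counts scaled to a common library size) in at least 1 mouse and were tested, and all 9 transporters were among them. RNA came from the ileum of 20 female C57BL/6 mice, 7 weeks old per the study's methods, that were fed for 3 weeks either a control amino acid diet (CD) or the same kind of diet lacking tryptophan (Trp-deficient diet, TDD). Mice were specific pathogen-free (SPF), or were given an antibiotic cocktail (ABX) of ampicillin, vancomycin, metronidazole, neomycin and gentamycin in drinking water sweetened with 2% sucrose. The study does not say whether SPF mice had sucrose too, so differences with antibiotics cannot be told apart from differences with sucrose. It also reports marked weight loss on TDD, far milder with antibiotics, and the part of weight loss in the diet differences was not tested. The 4 groups of 5 mice are named CD, TDD, CD+ABX and TDD+ABX, and all mice were of the same strain, for which the labels name no engineered allele. The labels do not say whether mice of a group were housed or handled separately, so p-values measure only the spread between these mice.

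Enterocytes, the absorptive cells of the intestinal lining, take up charged or polar solutes through carriers in the membrane that faces the lumen. Sodium-coupled carriers (the SLC13, SLC28 and SLC5 families) use the sodium gradient, SLC47 carriers exchange protons for organic cations, and SLC26 carriers exchange anions. In these pieces of whole gut wall, more enterocytes of a kind and more RNA per enterocyte cannot be told apart.

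Promoter sequences were printed for transporters that were higher on TDD in SPF mice at q under 0.05 and 2-fold. Their RefSeq window (GRCm38.p6) also had to lie within 100 bases of the start of their most abundant transcript. The sequences are shown because these members share a direction in that comparison. Each runs 5′ to 3′ on the gene's strand and ends at the base before RefSeq's first transcribed base. For Slc5a6 only the last 92 bases, which no annotated exon covers, are given. The printed stretches lie at chr11:78422235-78422484 (minus strand), chr7:81114549-81114798 (plus strand) and chr5:31048080-31048171 (minus strand). Capitals mark CpG pairs, the bases at which mammalian DNA is methylated.
Slc13a2: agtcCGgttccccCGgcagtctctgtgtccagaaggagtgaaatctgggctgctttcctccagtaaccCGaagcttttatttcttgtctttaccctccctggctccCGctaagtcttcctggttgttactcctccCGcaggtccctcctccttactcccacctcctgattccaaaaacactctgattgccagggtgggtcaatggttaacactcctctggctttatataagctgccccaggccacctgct
Slc28a1: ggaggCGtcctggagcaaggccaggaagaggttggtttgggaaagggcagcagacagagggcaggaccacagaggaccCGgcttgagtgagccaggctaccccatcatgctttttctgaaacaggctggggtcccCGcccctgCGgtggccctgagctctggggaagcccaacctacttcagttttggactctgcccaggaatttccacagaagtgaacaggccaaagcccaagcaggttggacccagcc
Slc5a6: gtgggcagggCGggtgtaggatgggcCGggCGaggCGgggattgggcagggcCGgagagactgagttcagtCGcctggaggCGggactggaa
The printed stretches of Slc13a2 and Slc28a1 held 5 and 4 CpG pairs in 250 bases, below the median of 6 over all 32851 windows. The whole 250-base window of Slc5a6 held 20 CpG pairs with a GC content of 70.8%, against a median of 52.4% over all windows. RefSeq windows were used for 7 of the 9 transporters (all but Slc13a1 and Slc47a1), 8 windows in all. On both strands of these 8 windows, each taken with the 50 bases after the start, no match was found to the E-box CACGTG bound by clock factors (7.15% of all windows hold it), the D-box TTATGTAA (0.938%) or the HNF4 motif CAAAGTCCA (0.475%). The CDX2 motif TTTATNG, present in 10.9% of all windows, matched only the window of Slc28a2, 239 bases before the start. Slc28a2-203 and Slc28a2-204 begin within 100 bases of that start. The former held 1.63% to 3.86% of the gene's TPM (transcript level per length, scaled to a common total) in the group means.

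Libraries held 36.7 to 58.7 M estimated counts per mouse. Epithelial markers were abundant in every mouse, with a summed level of 8650 to 17200 CPM over 6 genes, and Osr2 and Gata4, at medians of 105 and 101 CPM, were both expressed. The defining markers of distal ileal enterocytes were low, at a median of 11 CPM for Slc10a2 (the bile acid carrier) and 2.99 CPM for Fabp6 (the ileal bile acid binding protein). Lct (lactase), which is high in the upper intestine, had a median of 2220 CPM, while Pdx1 of the duodenum had a median of 0 and the colon genes Car1 and Aqp8 medians of 0 CPM.

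TDD feeding of SPF mice went with higher RNA of 5 of the 9 transporters, and for the other 4 no difference was detected. Slc13a1, Slc13a2, Slc28a1, Slc47a1 and Slc5a6 passed the test with at least 2-fold higher RNA on TDD, and none of the 9 passed as lower (Benjamini-Hochberg adjusted p, called q, under 0.05 in the quasi-likelihood test of edgeR). Thus 5 of 9 were called higher where 0.846% of all genes tested were, 5 of 9 had q under 0.05 where 6.70% of all genes did, and in 4 of 9 every TDD mouse lay above every CD mouse, as in 4.68% of all genes. The median log2 fold change over the 9 was 1.07, against 0.01 over all genes tested. The comparisons share groups, so the values that follow are given side by side and no agreement between comparisons was counted.

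**Figure D1:**
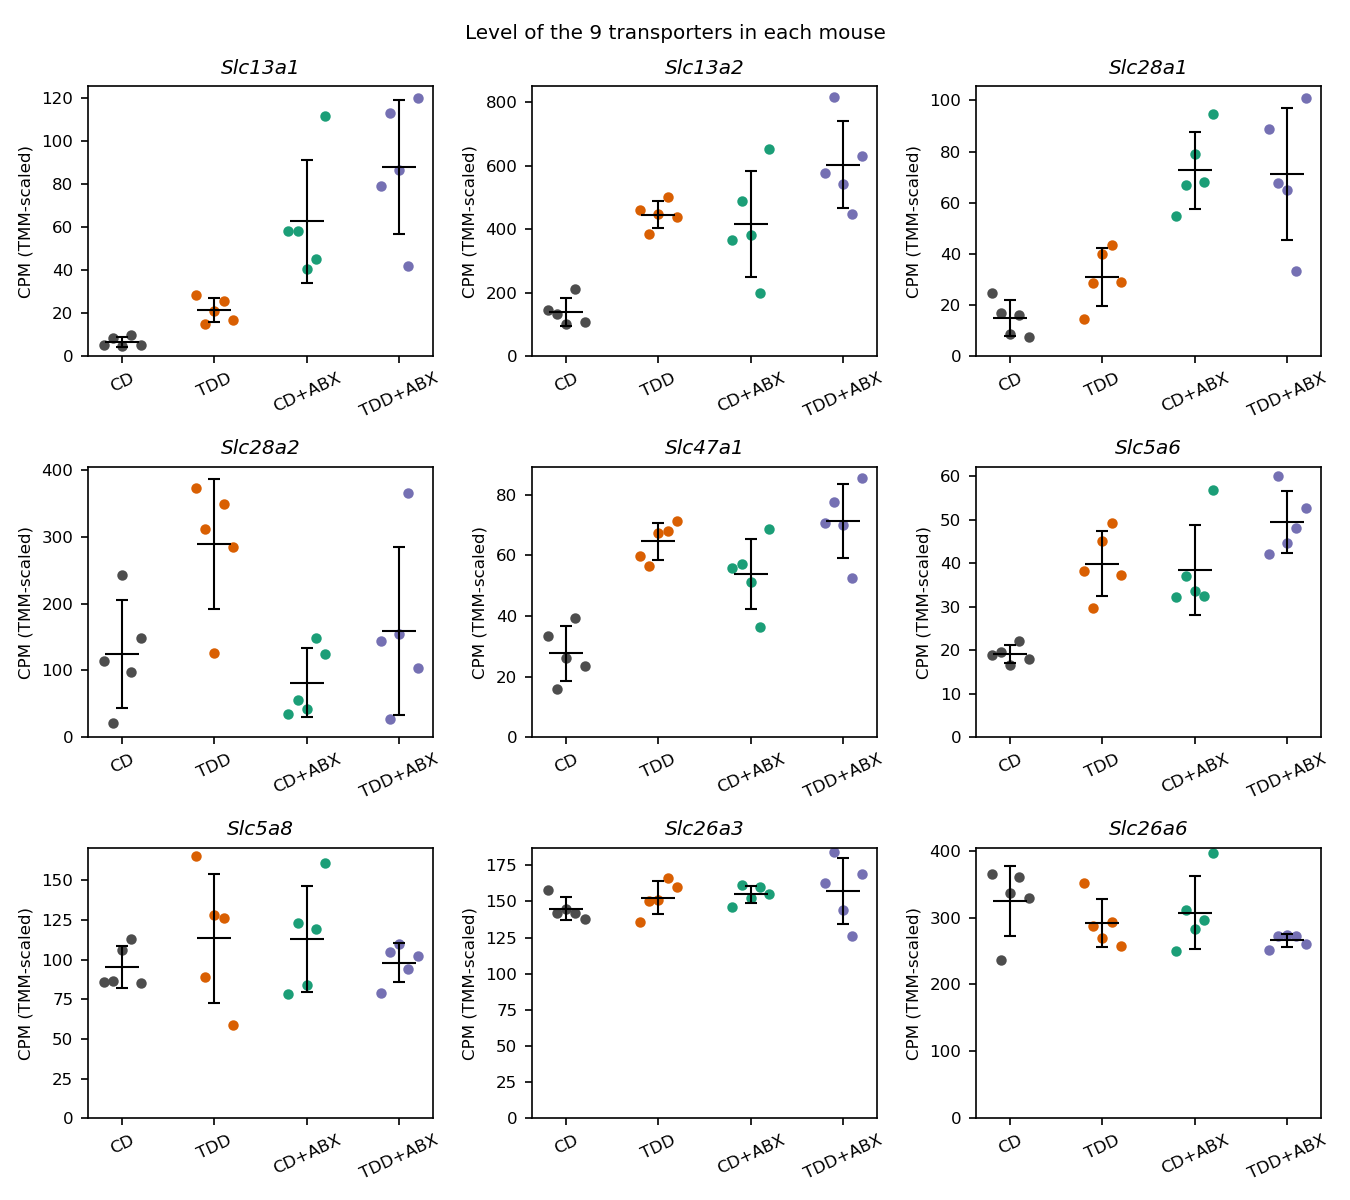
Level of each transporter in CPM after TMM scaling (vertical axis from 0) for the 4 groups, with 1 point per mouse, a bar at the mean and whiskers of 1 SD (n = 5). CD mice have the lowest means for Slc13a1, Slc13a2, Slc28a1, Slc47a1 and Slc5a6, while the groups of Slc5a8, Slc26a3 and Slc26a6 overlap throughout.

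Slc13a1 encodes the sodium-sulfate cotransporter NaS1, which takes up inorganic sulfate. The 5 CD mice had 5.23, 8.54, 4.91, 10.1 and 5.41 CPM, and the 5 TDD mice 28.4, 14.9, 21.3, 25.7 and 17.0 CPM. With antibiotics, the CD+ABX mice had 58.2, 58.5, 40.4, 45.2 and 112 CPM, and the TDD+ABX mice 79.1, 113, 86.9, 41.8 and 120 CPM. Each TDD mouse lay above each CD mouse, and each ABX-treated mouse lay above each SPF mouse of either diet. Means were 6.84 ± 2.34, 21.4 ± 5.68, 62.9 ± 28.6 and 88.0 ± 30.9 CPM in CD, TDD, CD+ABX and TDD+ABX mice (SD, n = 5 each). With its standard error (SE), the log2 fold change on TDD was 1.65 in SPF mice (q = 0.00196 by edgeR, SE 0.32), or 3.13-fold. Slc13a1 was higher with antibiotics by a log2 fold change of 3.20 on CD (q = 3.98e-05 by edgeR, SE 0.33), or 9.2-fold. On TDD it was higher with antibiotics by 2.04 (q = 0.000585 by edgeR, SE 0.31), or 4.11-fold. In ABX-treated mice both diet groups overlapped, and the log2 fold change on TDD was 0.48 (95% interval -0.14 to 1.11, q = 0.469, edgeR). The gene (ENSMUSG00000029700.11) lies on the minus strand at chr6:24088283-24168092 of GRCm38, and its full-length transcript Slc13a1-201, of 15 exons, held 92.8% to 96.9% of its TPM in the group means.

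Slc10a2, the distal ileal marker, was likewise higher in each ABX-treated mouse than in any SPF mouse. It ranged from 1.38 to 3.89 CPM in CD, 3.69 to 8.8 in TDD, 16.6 to 86.1 in CD+ABX and 13.2 to 58.3 in TDD+ABX mice. Its log2 fold change with antibiotics was 4.07 on CD (q = 7.59e-05, edgeR) and 2.65 on TDD (q = 0.00108, edgeR). The diet difference of Slc10a2 in SPF mice, 1.32, had q = 0.0586 (edgeR). Of the 3 distal ileal markers (Slc10a2, Fabp6 and Osr2), 2 passed as higher with antibiotics on CD and all 3 on TDD, and 0 of 3 passed in either diet comparison at q under 0.05 (edgeR). With antibiotics, Osr2 differed by 0.08 on CD (q = 0.657, edgeR) and 0.31 on TDD (q = 0.0337, edgeR), and Fabp6 by 5.14 and 3.92. The summed level of the 3 markers was 94.5 to 114 CPM in CD, 86.7 to 114 in TDD, 119 to 291 in CD+ABX and 133 to 183 in TDD+ABX mice. The part of the distal ileal markers in the differences of Slc13a1, Slc28a1 and the other transporters with antibiotics was not tested.

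**Figure D2:**
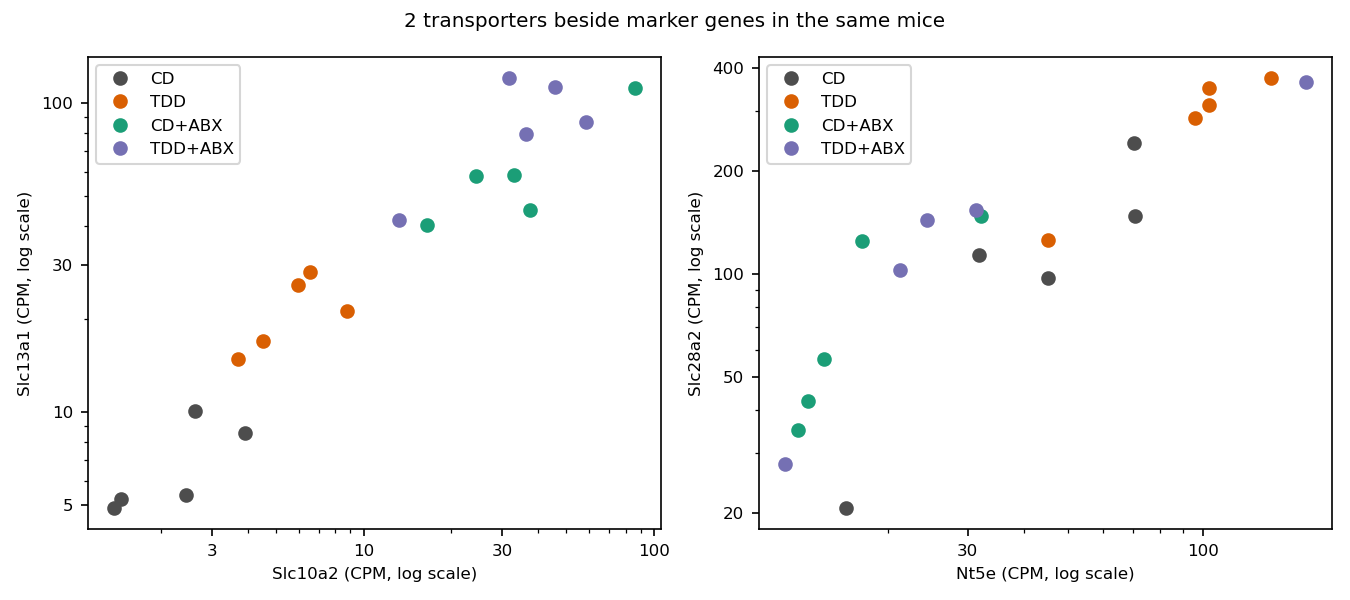
Slc13a1 against Slc10a2 (left) and Slc28a2 against Nt5e (right) in CPM on log axes, with 1 point for each of the 20 mice coloured by group. The ABX-treated mice lie at the top right for Slc13a1, and CD mouse 2 and TDD+ABX mouse 2 at the lower left for Slc28a2.

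Slc13a2 encodes NaDC1, the sodium-dicarboxylate cotransporter of succinate and citrate, and was the transporter with the highest mean level per length in 2 of the groups, TDD and TDD+ABX. CD mice had 146, 134, 101, 213 and 109 CPM, and TDD mice 461, 384, 447, 501 and 437 CPM. CD+ABX mice had 367, 488, 382, 199 and 652 CPM, and TDD+ABX mice 578, 815, 544, 447 and 632 CPM. The CD and TDD mice did not overlap in the SPF setting, whereas CD+ABX mouse 4, at 199 CPM, lay below CD mouse 4, at 213 CPM. The means were 141 ± 44.4, 446 ± 42.3, 418 ± 167 and 603 ± 136 CPM in the same order of groups (SD, n = 5 each). The TDD fold was 3.17 in SPF mice (1.67 on the log2 scale, q = 0.000236 by edgeR, SE 0.25), and the antibiotic fold on CD was 2.97 (1.57 on the log2 scale, q = 0.000715 by edgeR, SE 0.25). On TDD the antibiotic difference was 0.43 on the log2 scale (95% interval -0.08 to 0.95, q = 0.233, edgeR), and in ABX-treated mice the diet difference was 0.53 (0.02 to 1.04, q = 0.31, edgeR). Slc13a2 (ENSMUSG00000001095.5) lies on the minus strand at chr11:78397087-78422217 and has 1 annotated transcript. Its exons share 632 bases with the antisense gene Slc13a2os, which was not analysed here, and whether the libraries kept strand is not given in the sources used here.

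Slc28a1 and Slc28a2 encode the concentrative nucleoside transporters CNT1, which prefers pyrimidine nucleosides, and CNT2, which prefers purine nucleosides. Slc28a1 had 24.9, 16.9, 8.68, 16.3 and 7.73 CPM in CD mice and 14.5, 28.7, 39.9, 43.5 and 28.9 CPM in TDD mice. It had 54.8, 67.1, 79.0, 68.0 and 94.8 CPM in CD+ABX mice and 88.7, 67.7, 65.0, 33.5 and 101 CPM in TDD+ABX mice. CD and TDD mice overlapped through TDD mouse 1, all CD+ABX mice lay above all CD mice, and TDD+ABX mouse 4 fell among the TDD mice. The means were 14.9 ± 6.99, 31.1 ± 11.4, 72.7 ± 15.0 and 71.2 ± 25.9 CPM (SD, n = 5 each). Slc28a1 was higher with antibiotics by a log2 fold change of 2.29 on CD (q = 0.000429 by edgeR, SE 0.34), or 4.91-fold. On TDD it was higher with antibiotics by 1.20 (q = 0.0193 by edgeR, SE 0.32), or 2.29-fold. The diet difference in SPF mice, 1.07 (q = 0.0364 by edgeR, SE 0.33) or 2.09-fold, was close to the threshold. It was lost when CD mouse 3, 4 or 5 or TDD mouse 2, 3, 4 or 5 was left out, with log2 fold changes of 0.89 to 1.10 and q of 0.0518 to 0.102 (edgeR). The antibiotic call on TDD was lost without TDD+ABX mouse 1 (1.12, q = 0.0512, edgeR). In ABX-treated mice the diet difference of Slc28a1 was -0.03 (95% interval -0.71 to 0.64, q = 0.976, edgeR). The gene (ENSMUSG00000025726.11, chr7:81114799-81170416, plus strand) had 2 quantified transcripts, of which Slc28a1-201 held 69.6% of the TPM in CD and 81.2% in CD+ABX mice.

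Slc28a2 passed in none of the comparisons, and had the largest coefficient of variation of the 9 members in CD (64.8%), CD+ABX (63.4%) and TDD+ABX mice (79.0%). CD mice had 114, 20.8, 242, 97.4 and 148 CPM, and TDD mice 373, 311, 126, 349 and 285 CPM. CD+ABX mice had 35.1, 56.4, 42.5, 148 and 125 CPM, and TDD+ABX mice 144, 27.9, 154, 365 and 103 CPM. Single mice, such as CD mouse 2 on the low side and TDD+ABX mouse 4 on the high side, lay several-fold from others of their group, and all groups overlapped. The means were 124 ± 80.6, 289 ± 97.0, 81.5 ± 51.7 and 159 ± 125 CPM (SD, n = 5 each). The log2 fold change on TDD was 1.21 in SPF mice (SE 0.59, 95% interval -0.04 to 2.47, q = 0.184, edgeR) and 0.96 in ABX-treated mice (-0.29 to 2.21, q = 0.475, edgeR), so 2-fold differences lie inside both intervals. Antibiotic differences were -0.61 on CD (q = 0.566, edgeR) and -0.86 on TDD (q = 0.333, edgeR).

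The swings of Slc28a2 between mice ran alongside those of Nt5e and Ada, which make and break down adenosine and are among the 6 villus tip markers. Apoa4, another of these markers, spanned 1300 to 11800 CPM in CD mice. In TDD+ABX mice it spanned 3320 to 4890 CPM, where Slc28a2 spanned 27.9 to 365 CPM. The other villus tip markers are not given by mouse. Nt5e was 16.1 CPM in CD mouse 2, the lowest of its group, and 169 CPM in TDD+ABX mouse 4, where the other TDD+ABX mice had 11.8 to 31.3 CPM. Ada was 17.0 CPM in CD mouse 2, where the other CD mice had 194 to 341 CPM, and 431 CPM in TDD+ABX mouse 4. The 6 villus tip markers summed to 1560 to 12800 CPM in CD, 6790 to 11800 in TDD, 2490 to 3800 in CD+ABX and 4200 to 6270 in TDD+ABX mice. Of these 6, 1 passed as lower in the SPF diet comparison (Egfr, -0.33, q = 0.0422, edgeR), 0 passed in the ABX diet comparison, and only Apoa4 passed with antibiotics, where it was lower on CD (-1.61 on the log2 scale, q = 0.0054, edgeR) and on TDD (-1.13, q = 0.0317, edgeR). The part of villus position in the spread of Slc28a2 was not tested. Slc28a2 (ENSMUSG00000027219.13, chr2:122426477-122461137, plus strand) has a close copy, Slc28a2b, with 95.7% identity over 2840 bases and 0.163 to 3.48 CPM, so a small part of their reads could have been shared. The copy passed as lower with antibiotics on CD (-1.93 on the log2 scale, q = 0.0357, edgeR).

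Slc47a1 encodes MATE1, a proton-coupled exporter of organic cations. CD mice had 33.3, 16.1, 26.2, 39.5 and 23.6 CPM, and TDD mice 59.7, 56.5, 67.5, 68.1 and 71.3 CPM. CD+ABX mice had 55.7, 57.1, 51.3, 36.5 and 68.7 CPM, and TDD+ABX mice 70.6, 77.6, 69.9, 52.7 and 85.7 CPM. All TDD mice lay above all CD mice, and CD+ABX mouse 4 lay within the CD range. The means were 27.7 ± 9, 64.6 ± 6.21, 53.8 ± 11.6 and 71.3 ± 12.2 CPM (SD, n = 5 each). In SPF mice Slc47a1 was higher on TDD by a log2 fold change of 1.22 (q = 0.00043 by edgeR, SE 0.19), or 2.33-fold. With antibiotics Slc47a1 was higher on CD by 0.96 (q = 0.00353 by edgeR, SE 0.19), or 1.94-fold, under the 2-fold limit. On TDD the antibiotic difference was 0.14 (q = 0.646, edgeR). In ABX-treated mice the diet difference was 0.41 (95% interval 0 to 0.81, q = 0.326, edgeR). Slc47a1 (ENSMUSG00000010122.14) lies on the minus strand at chr11:61343401-61378345, and its most abundant transcripts moved in the same order: Slc47a1-201 had 6.60, 13.6, 12.6 and 15.5 TPM and the predicted nonsense-mediated decay transcript Slc47a1-202 had 5.40, 13.0, 10.4 and 15.8 TPM in the CD, TDD, CD+ABX and TDD+ABX means.

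Slc5a6 encodes the sodium-dependent multivitamin transporter SMVT, which takes up biotin, pantothenate and lipoate. CD mice had 18.9, 19.7, 16.7, 22.2 and 18.0 CPM, and TDD mice 38.2, 29.8, 45.0, 49.1 and 37.3 CPM. CD+ABX mice had 32.3, 37.0, 33.7, 32.5 and 56.7 CPM, and TDD+ABX mice 42.0, 59.9, 44.6, 48.0 and 52.6 CPM. All mice of the other 3 groups lay above all CD mice, and these 3 groups overlapped one another. The means were 19.1 ± 2.06, 39.9 ± 7.48, 38.4 ± 10.4 and 49.4 ± 7.08 CPM (SD, n = 5 each). The log2 fold change was 1.06 for TDD in SPF mice (q = 0.000206 by edgeR, SE 0.16), or 2.09-fold, and 1.01 for antibiotics on CD (q = 0.000557 by edgeR, SE 0.16), or 2.01-fold. Both lay at the 2-fold limit: without TDD mouse 4 the former was 0.98, and without CD+ABX mouse 5 the latter was 0.83. In ABX-treated mice the diet difference was 0.36 (95% interval 0.04 to 0.69, q = 0.263, edgeR), and without CD+ABX mouse 5, the highest of its group, it was 0.55 and passed (q = 0.0313, edgeR). Antibiotics on TDD gave 0.31 (-0.01 to 0.63, q = 0.176, edgeR).

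The transcripts of Slc5a6 did not share its difference evenly. Slc5a6-205 and Slc5a6-206 both start within 100 bases of the printed window. Slc5a6-205 had 1.75 to 6.04 TPM in CD, 7.83 to 12.5 in TDD, 4.27 to 12.8 in CD+ABX and 11.7 to 15.2 in TDD+ABX mice. Its share of the gene's TPM was 28.8% in CD and 48.6% in TDD means. Slc5a6-206 had 0.846 to 4.33 TPM in CD and 2.24 to 5.79 TPM in TDD mice, which overlapped. Shares of single transcripts are kallisto's estimates from reads that mostly fit several of them, and they were not tested. Slc5a6 (ENSMUSG00000006641.12) lies on the minus strand at chr5:31036036-31048924 and shares 396 exonic bases with Atraid on the other strand. Atraid had 1222 to 2182 counts and a log2 fold change of 0.14 on TDD in SPF mice (q = 0.156, edgeR). The pseudogene Gm6157, 97.8% identical over 1897 bases, had 0 counts in every mouse.

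**Figure D3:**
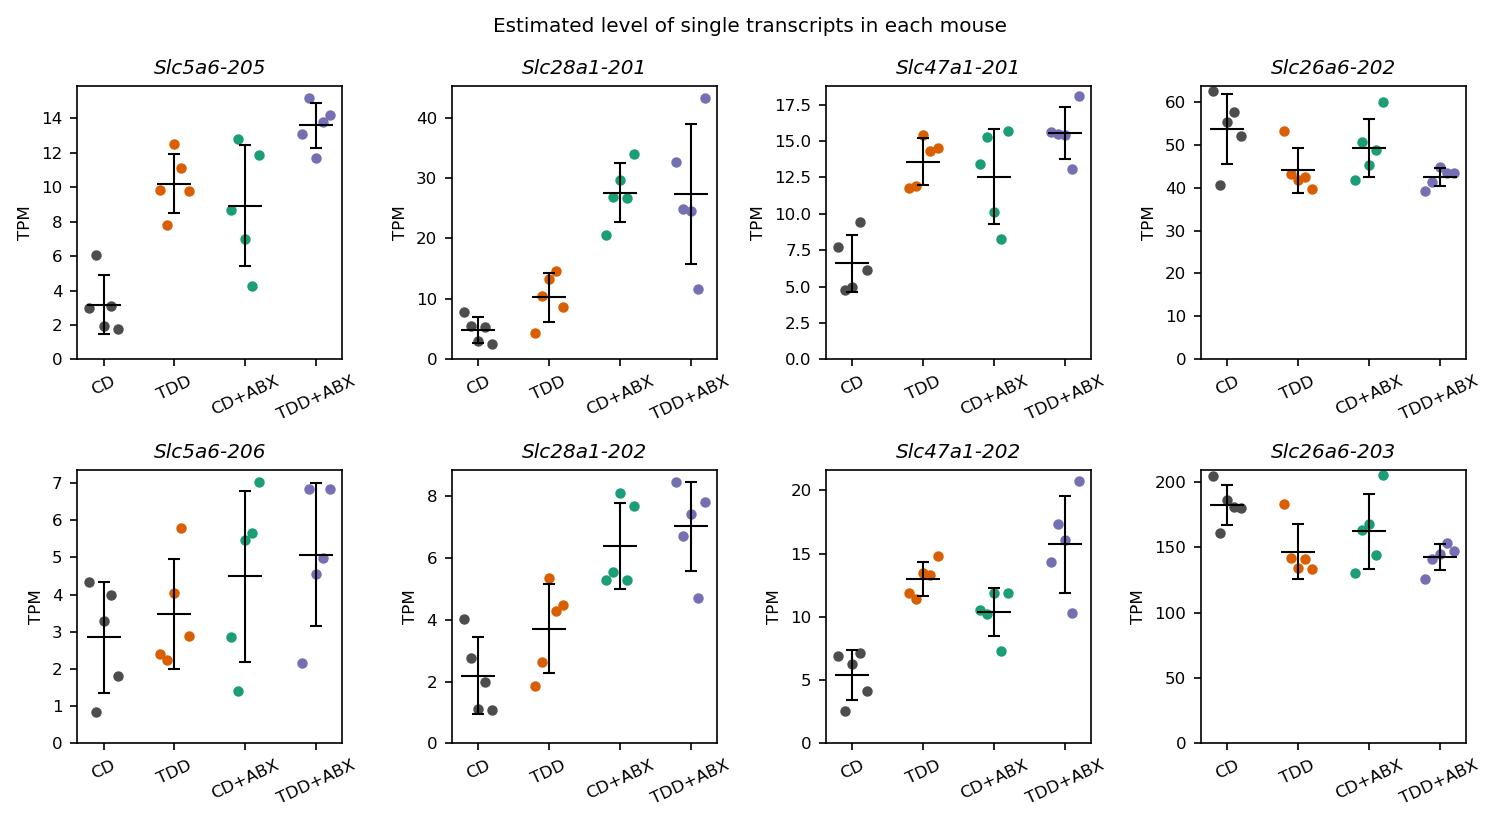
TPM of single transcripts of Slc5a6, Slc28a1, Slc47a1 and Slc26a6 (vertical axes from 0) in the 4 groups, with 1 point per mouse, a bar at the mean and whiskers of 1 SD (n = 5). Slc5a6-205 separates CD from TDD mice while Slc5a6-206 does not, and Slc26a6-203 lies above Slc26a6-202 in every group.

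For the remaining 3 transporters no difference was detected in any comparison. Slc5a8 encodes SMCT1, a sodium-coupled carrier of short-chain fatty acids, lactate and nicotinate. CD mice had 85.9, 86.8, 106, 113 and 85.0 CPM, TDD mice 165, 89.0, 128, 126 and 59.0 CPM, CD+ABX mice 78.4, 123, 84.2, 119 and 161 CPM and TDD+ABX mice 78.7, 105, 110, 94.3 and 102 CPM. The TDD mice held both the highest and the lowest value, and every group overlapped every other. The diet differences were 0.25 in SPF mice (95% interval -0.22 to 0.71, q = 0.503, edgeR) and -0.21 in ABX-treated mice (-0.67 to 0.26, q = 0.715, edgeR), so a change by 2-fold lies outside both intervals. Antibiotic differences were 0.25 on CD (q = 0.534, edgeR) and -0.21 on TDD (q = 0.55, edgeR). Slc5a8 (ENSMUSG00000020062.7) lies on the plus strand at chr10:88885992-88929515.

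Slc26a3 encodes the chloride-bicarbonate exchanger DRA, and had the smallest coefficient of variation of the 9 in CD, TDD and CD+ABX mice, at 4.0% to 7.48%. CD mice had 158, 142, 145, 142 and 138 CPM, TDD mice 136, 150, 151, 166 and 160 CPM, CD+ABX mice 146, 161, 152, 160 and 155 CPM and TDD+ABX mice 163, 184, 144, 126 and 169 CPM. Its group means ran from 145 to 157 CPM, and the groups overlapped. The diet differences were 0.07 in SPF mice (95% interval -0.10 to 0.25, q = 0.597, edgeR) and 0.02 in ABX-treated mice (-0.15 to 0.19, q = 0.928, edgeR), and the antibiotic differences 0.10 on CD (q = 0.503, edgeR) and 0.04 on TDD (q = 0.748, edgeR). Slc26a3 (ENSMUSG00000001225.12) lies on the plus strand at chr12:31390871-31473917, and Slc26a3-201 held 87.3% to 88.6% of its TPM.

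Slc26a6 encodes PAT1, which exchanges chloride for bicarbonate, oxalate or formate. CD mice had 365, 236, 336, 360 and 329 CPM, TDD mice 351, 288, 270, 293 and 258 CPM, CD+ABX mice 250, 311, 283, 296 and 396 CPM and TDD+ABX mice 252, 273, 274, 272 and 260 CPM. The groups overlapped, and the log2 fold changes were -0.16 on TDD in SPF mice (95% interval -0.41 to 0.10, q = 0.42, edgeR), -0.21 on TDD in ABX-treated mice (q = 0.447, edgeR), -0.08 with antibiotics on CD (q = 0.734, edgeR) and -0.13 with antibiotics on TDD (q = 0.479, edgeR). Its gene-level counts were 2 times the sum of its transcripts in every mouse, which doubles the CPM given here and leaves the fold changes as they are, and the other 8 transporters matched their transcripts. Moreover, 68.5% to 70.3% of its TPM sat in Slc26a6-203, a transcript of 418 bases and 2 exons that begins 50.3 kb beyond the last base of Slc26a6-202, the transcript with the next highest TPM. Counted once, all its transcripts together had means of 163 ± 26.1, 146 ± 18, 154 ± 27.3 and 133 ± 4.88 CPM in CD, TDD, CD+ABX and TDD+ABX mice. Without Slc26a6-203 these means were 127 ± 22.2, 115 ± 12.7, 121 ± 20.8 and 105 ± 3.60 CPM in the same order (SD, n = 5 each), and no comparison passed (lowest q = 0.457, edgeR). Slc26a6 (ENSMUSG00000023259.16) lies on the plus strand at chr9:108853283-108913049.

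Levels of different genes were set side by side only per length, in TPM. In CD mice, Slc26a6 led with 260 ± 27.4 TPM, most of it from Slc26a6-203, and Slc28a2, Slc13a2 and Slc26a3 followed with 79.5 ± 53.3, 78.9 ± 23.4 and 69.4 ± 4.59 TPM (SD, n = 5 each), which do not differ beyond their spread. Slc5a8 (23.3 ± 3), Slc47a1 (19.0 ± 5.67), Slc5a6 (10.9 ± 1.06), Slc28a1 (7.01 ± 3.35) and Slc13a1 (3.69 ± 1.23 TPM) came next. In TDD+ABX mice, Slc13a2 led with 348 ± 73.4 TPM and Slc26a6 had 208 ± 13.4 TPM. There, Slc47a1 and Slc13a1, at 51.9 ± 8.98 and 49.1 ± 17.6 TPM, did not differ beyond their spread, and Slc5a8, at 24.8 ± 3.56 TPM, was lowest. Slc13a1 thus moved from the lowest of the 9 means in CD mice to the sixth in TDD+ABX mice.

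**Figure D4:**
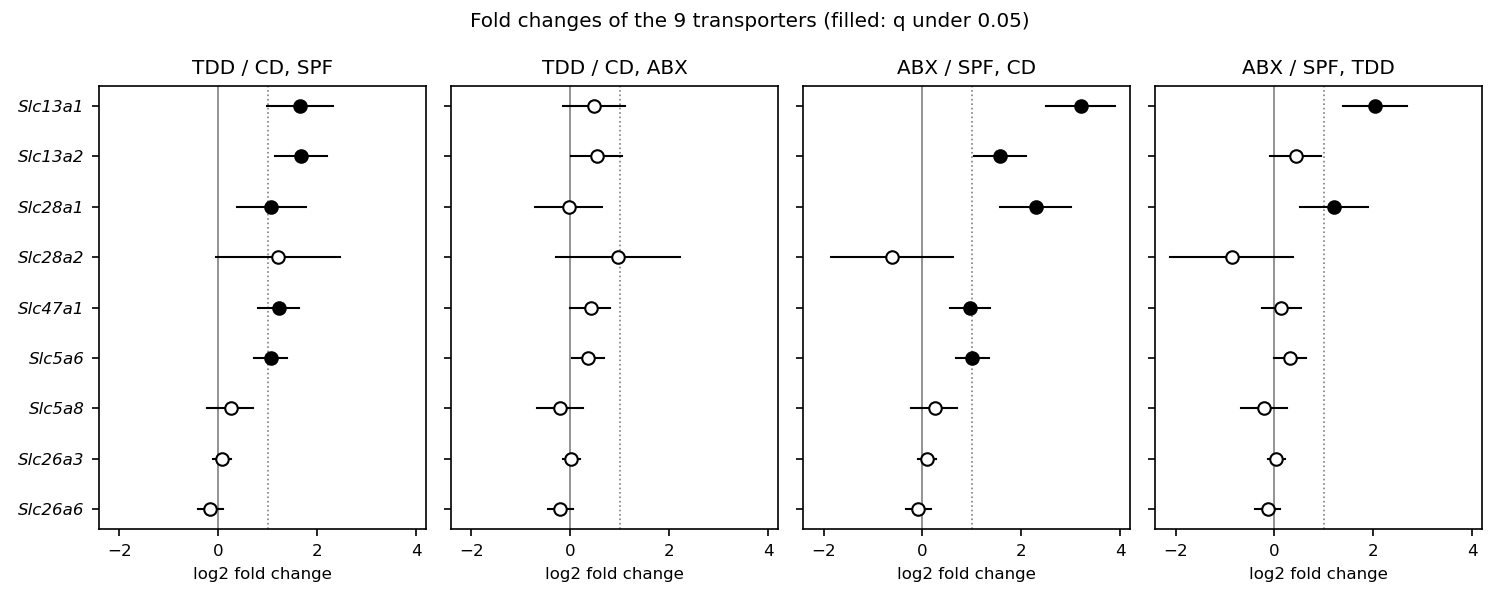
Log2 fold change of each transporter (horizontal axis) with its 95% interval in the 2 diet and the 2 antibiotic comparisons, with filled points for q under 0.05 and a dotted line at 2-fold. Filled points number 5 for TDD in SPF mice, 0 for TDD in ABX-treated mice, 5 for antibiotics on CD and 2 for antibiotics on TDD.

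In ABX-treated mice the diet comparison gave 0 of 9 transporters with q under 0.05 in edgeR's test, where 1.77% of all genes passed in either direction. At an unadjusted p under 0.05 there were 3 (Slc13a2, Slc47a1 and Slc5a6), against 14.8% of all genes, and for none did TDD+ABX and CD+ABX mice separate, as they did for 4.78% of all genes. On CD, antibiotics gave 4 of 9 called higher (0.607% of all genes), 5 with q under 0.05 (5.35%) and 3 whose groups did not overlap (3.86%). On TDD they gave 2 of 9 called higher (0.374% of all genes), namely Slc13a1 and Slc28a1, and Slc13a1 alone did not overlap between groups (5.97%).

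The diet effect in SPF mice was next compared with that in ABX-treated mice through the interaction of diet and antibiotics. The interaction ran from -1.16 for Slc13a1 to -0.05 for Slc26a3 and Slc26a6 on the log2 scale, and 0 of 9 passed in edgeR's test, where 0.0368% of all genes passed, and 0 of 9 in DESeq2. Its sign turned for Slc26a3 and Slc26a6 on the TPM scale (0.04 and 0.12), for Slc26a3 without TDD+ABX mouse 4 (0.03), for Slc26a6 without CD mouse 2, TDD mouse 1 or CD+ABX mouse 5 (0.03 to 0.06), and for Slc28a2 without CD mouse 2, CD+ABX mouse 4 or TDD+ABX mouse 2 (0.02 to 0.08). The diet effect is therefore not shown to differ between SPF and ABX-treated mice for any transporter. At an unadjusted p under 0.05, 5 of 9 were lower, against 4.62% of all genes. For Slc13a2 the interaction was -1.14 (95% interval -1.86 to -0.41, q = 0.265, edgeR), for Slc5a6 -0.70 (q = 0.281, edgeR), for Slc47a1 -0.82 (q = 0.314, edgeR), for Slc13a1 -1.16 (95% interval -2.07 to -0.25, q = 0.37, edgeR) and for Slc28a1 -1.10 (q = 0.462, edgeR).

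Over the 20 mice, Slc13a1, Slc13a2, Slc28a1, Slc47a1 and Slc5a6 had Pearson's r of log2(CPM + 1) between 0.70 and 0.95 with one another. It was 0.95 between Slc13a2 and Slc5a6, 0.94 between Slc13a2 and Slc47a1, and 0.89 between Slc13a1 and Slc28a1. Once group means were taken out, the same pairs had r of 0.72, 0.73 and 0.39, so the last rests more on differences between groups. Slc28a2 had r between -0.28 and 0.29 with the other members. These values describe 20 libraries that share groups, and no test was made of them.

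Among 11135 genes with a mean of at least 5 CPM, those closest to each member in log2(CPM + 1) over the 20 mice were as follows, with r after removal of group means given second. For Slc13a2 they were Per2, a repressor of the circadian clock (0.95 and 0.81), Slc5a6 (0.95 and 0.72) and Usp2, a deubiquitinase (0.95 and 0.78). For Slc5a6 they were Slc13a2, Cyp4b1 (0.93 and 0.66) and Dcxr (0.92 and 0.80), and for Slc47a1 Arl14 (0.96 and 0.87), Slc13a2 and Dlg3 (0.93 and 0.80). Slc13a1 was closest to Edn3, an endothelin (0.96 and 0.76), and to the aldo-keto reductases Akr1c13 (0.96 and 0.56) and Akr1c19 (0.96 and 0.58). Slc28a1 was closest to the aquaporin Aqp3 (0.93 and 0.76), Akr1c19 (0.92 and 0.70) and Edn3 (0.92 and 0.59). Slc28a2 was closest to Slc23a4 (0.95 and 0.95), Ly6m (0.95 and 0.95) and Bambi-ps1 (0.95 and 0.93), whose likeness held within groups. For Slc26a6 they were Plekhb2 (0.95 and 0.95), Spink1 (0.93 and 0.92) and Lrrc1 (0.93 and 0.94). For Slc5a8 the highest r were 0.81 with Neu1, 0.77 with Retreg2 and 0.77 with Fam20a, and for Slc26a3 0.68 with Podn, 0.65 with Slc4a1ap and 0.64 with Srsf11.

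Genes that work beside these transporters were taken as 9 lists. Over all genes tested, 6.70% rose and 7.73% fell on TDD in SPF mice at q under 0.05 (edgeR), and 0.681% rose and 1.09% fell in ABX-treated mice. Of the other SLC13 and SLC26 members, 5 of 12 were tested and 1 rose on TDD in SPF mice, Slc26a4 (pendrin), from 0.668 to 1.22 CPM (0.87 on the log2 scale, q = 0.0218, edgeR). Of 16 genes of sulfate activation and transfer, 1 rose, Sult1a1, a phenol sulfotransferase, from 5.78 ± 1.12 to 9.24 ± 0.976 CPM (0.68, q = 0.00449, edgeR). Of 8 genes that use or carry citrate and dicarboxylates inside the cell, 0 passed in either diet comparison at q under 0.05 in edgeR's test.

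Of 22 nucleoside carriers and salvage enzymes, 0 rose and 4 fell on TDD in SPF mice, and 0 rose and 4 fell in ABX-treated mice. Pnp, purine nucleoside phosphorylase, fell from 158 ± 24.1 to 81.9 ± 9.36 CPM in SPF mice (-0.95 on the log2 scale, q = 5.57e-05, edgeR) and from 130 ± 22.5 to 94.1 ± 6.72 CPM in mice with ABX (-0.47, q = 0.049, edgeR). Uck1, a uridine-cytidine kinase, fell in both as well (-0.38, q = 0.000176, and -0.24, q = 0.0339, edgeR). Slc28a3, which encodes the broad nucleoside transporter CNT3 of the same family as Slc28a1 and Slc28a2, fell in SPF (-0.34, q = 0.0212, edgeR) and in ABX-treated mice (-0.43, q = 0.0287, edgeR). Upp2 fell in SPF mice (-0.48, q = 0.0238, edgeR) and Upp1 in ABX-treated mice (-0.74, q = 0.0482, edgeR), and both are uridine phosphorylases. Median log2 fold changes of the list were -0.11 in SPF and -0.03 in ABX-treated mice.

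Of 10 tested carriers of organic cations, 1 rose on TDD in SPF mice. Abcb1a, the efflux pump P-glycoprotein, rose from 127 ± 18.0 to 364 ± 55.3 CPM in SPF mice (1.52, q = 0.000139, edgeR) and from 296 ± 123 to 657 ± 106 CPM in mice with ABX (1.15, q = 0.00924, edgeR). The organic cation transporter Slc22a3 fell in SPF mice (-0.89, q = 0.00468, edgeR). Of 22 genes of vitamin handling, 3 rose and 2 fell in SPF mice and 1 rose in ABX-treated mice. Slc23a1, which takes up ascorbate, rose from 87.5 ± 22.3 to 164 ± 21.1 CPM (0.90, q = 0.00778, edgeR), Slc19a1, the reduced folate carrier, from 11.2 ± 2.40 to 19.7 ± 2.16 CPM (0.81, q = 0.000633, edgeR), while the ascorbate carrier Slc23a2 (-0.35, q = 0.0254, edgeR) and the pantothenate kinase Pank2 (-0.19, q = 0.00929, edgeR) fell. Pank3, another such kinase, rose in SPF (0.33, q = 0.0424, edgeR) and in ABX-treated mice (0.42, q = 0.0463, edgeR).

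Of 14 tested monocarboxylate and SLC5 carriers, 1 rose and 2 fell in SPF mice and 0 passed in ABX-treated mice. Slc5a1, the sodium-glucose cotransporter, rose from 3130 ± 523 to 4780 ± 562 CPM (0.61, q = 0.0326, edgeR), and Slc16a1, the monocarboxylate carrier MCT1, fell from 86.0 ± 6.32 to 59.1 ± 4.30 CPM (-0.54, q = 5.62e-05, edgeR), as did its chaperone Bsg (-0.23, q = 0.0322, edgeR). Of 14 tested acid-base partners, 1 rose and 1 fell in SPF mice. Slc4a7, a sodium-bicarbonate cotransporter, rose in SPF (0.63, q = 0.0126, edgeR) and in ABX-treated mice (0.66, q = 0.0404, edgeR), and carbonic anhydrase Car2 fell in SPF mice (-0.91, q = 0.0133, edgeR). Of 15 transcription factors of the enterocyte, 1 rose, Ppara (0.60, q = 0.00649, edgeR), and 1 fell, Elf3 (-0.35, q = 0.0323, edgeR), in SPF mice, and 0 passed in ABX-treated mice.

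The same lists were counted with antibiotics, where the genes given were named after their values were seen (log2 fold changes on CD and on TDD, q under 0.05 in edgeR's test). Of all genes tested, 5.35% rose and 7.43% fell with antibiotics on CD, and 7.19% rose and 8.30% fell on TDD. Of 14 acid-base partners, 4 rose and 2 fell on CD and 3 rose on TDD. The carbonic anhydrases Car4 (1.29 and 0.89) and Car13 (0.45 and 0.47) and the bicarbonate carrier Slc4a7 (0.68 and 0.71) rose on both diets, while on CD alone Slc4a4 passed as higher (0.30) and Car2 (-1.17) and Slc9a8 (-0.32) as lower. Of 22 vitamin genes, 2 rose and 1 fell on CD and 4 rose and 1 fell on TDD. Slc46a1, the proton-coupled folate carrier, fell on both (-1.40 and -1.14) and Mccc1 rose on both (0.29 and 0.25), Slc52a3, a riboflavin carrier, passed on CD (0.76), and Pank1 (0.33), Pank3 (0.33) and Slc23a2 (0.41) passed on TDD. Of 10 cation carriers, Abcb1a rose on both diets (1.22 and 0.85) and Slc22a18 passed on CD (0.38).

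Of 14 monocarboxylate and SLC5 carriers, Slc5a4b rose (0.63 and 0.71) and Emb, a chaperone of monocarboxylate carriers, fell (-0.80 and -0.56) on both diets with antibiotics, and Slc16a1 passed on TDD (0.30). Of 22 nucleoside genes, the adenosine kinase Adk rose on both (0.23 and 0.29) and Tk1 passed on TDD (0.36). Of 8 dicarboxylate genes, Idh1 rose on both (0.45 and 0.46) and Aco1 passed on TDD (0.29). Among 15 enterocyte factors, Cdx2 passed on CD (0.40) and Cdx1 (0.30) and Hnf4a (0.29) on TDD. Of 16 sulfate genes, Sult2b1 passed as higher on CD (0.50) and Tpst1 (-0.43) and Tpst2 (-0.20) as lower on TDD, and of 5 SLC13 and SLC26 members 0 passed on CD and Slc26a4 fell on TDD (-0.83). The median log2 fold changes of the 9 lists lay between -0.11 and 0.29 for the diet in SPF mice, against 1.07 for the 9 transporters, which had been chosen on these mice.

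**Figure D5:**
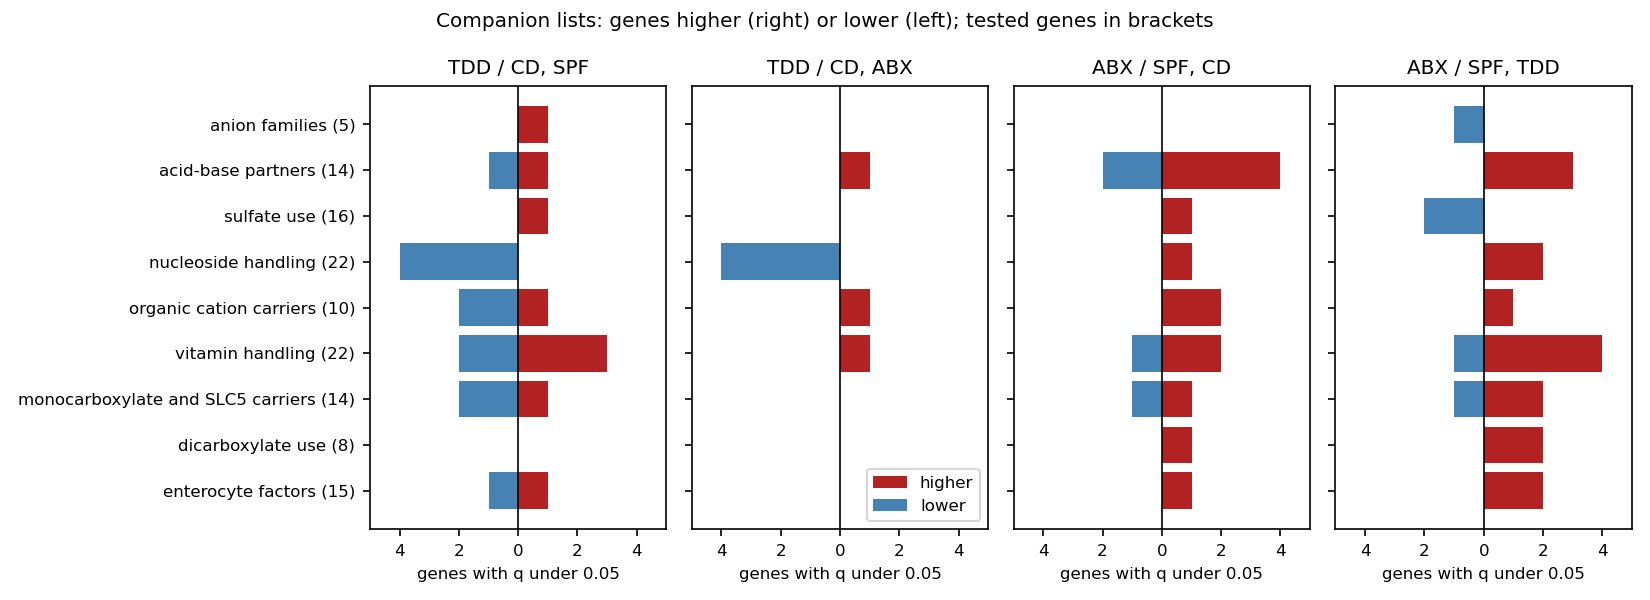
Number of genes of each companion list with q under 0.05, higher to the right and lower to the left, in the 2 diet and the 2 antibiotic comparisons. The 22 genes of nucleoside handling have 4 lower and 0 higher in both diet comparisons.

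Marker genes of other cells were counted in the same way, with log2 fold changes of those at q under 0.05 in edgeR's test. T cell markers passed as lower with antibiotics in 4 of 4 genes on CD and 3 of 4 on TDD, with sums of 25.2 to 76.5 CPM in CD and 14.9 to 19.6 CPM in CD+ABX mice. Of 3 plasma cell markers, Jchain (0.66) and Mzb1 (0.86) rose on TDD in SPF mice, and with antibiotics Mzb1 fell on CD (-0.92) and Mzb1 (-1.27) and Jchain (-1.05) fell on TDD. B cell markers, whose sums ranged from 2.38 to 130 CPM over the mice, and markers of smooth muscle, enteric neurons, fat and the proximal intestine passed in 0 genes in all 4 comparisons at q under 0.05 (edgeR). Of 6 epithelial markers, Krt8 rose with antibiotics on CD (0.35) and TDD (0.49). Of 6 crypt markers, Pcna rose with antibiotics on TDD (0.35). Of 5 goblet markers, Clca1 fell on TDD in SPF mice (-0.98) and rose with antibiotics on TDD (0.65), and of 4 Paneth markers Mmp7 rose on TDD in SPF mice (0.84) and fell with antibiotics on TDD (-0.77). The part of these cells in the differences of the transporters was not tested.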

How the data were processed

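Ileum pieces of 0.5 cm, cut 2 cm from the caecum, were used for poly-A RNA sequencing on a NovaSeq 6000. The authors assigned reads to the mouse transcriptome with kallisto 0.44.0 (GRCm38 and mm10 per the submitters' notes) and deposited a gene table of raw estimated counts, plus 1 table per mouse that gives every transcript's estimated count and its TPM. Transcripts were matched to GENCODE M21 (111362 of 113193). Of 12663 abundant genes, 12479 matched their summed transcripts within 1 percent and 151 held 2 times the sum.

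The study states 4 to 5 mice per group. All 5 deposited per group were used here, so mice that the authors left out may be among them. Estimated counts were rounded, scaled by TMM and tested with edgeR 4.0.16 (R 4.3.3), by quasi-likelihood in a single fit of all groups, with Benjamini-Hochberg adjustment over the 16306 genes that reached 0.5 CPM in 1 mouse or more. Following the study's limits, a gene was called at q under 0.05 and 2-fold. The members and all lists were chosen with earlier results of these data known. Named are all members, at most 4 genes per companion list with q under 0.05 in a diet comparison, and the 3 genes closest to each member. Other genes (markers, close copies, overlapping genes, Slc28a3, Pank2 and list genes past q under 0.05 with antibiotics) were named after their values were seen. Intervals use 16 residual degrees of freedom. Close copies were sought with blastn 2.17.0 (at least 90% identity over 200 bases). The fit was tested on simulated data. Alternatives were RLE scaling, other low-count filters, no fold limit, DESeq2 1.42.0, limma 3.58.1 on log2(TPM + 1) or log2(TPM + 0.1), a replicate block, the groups compared alone, leaving out each mouse, and, added after the data were seen, Slc26a6 without Slc26a6-203. Mice with the same number did not deviate together, so no pairing was used. Results of some genes of the companion and marker lists are not reported here.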

Additional observations from a re-analysis of the deposited data

Results flagged for a closer look

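Over the 36 sets of 5 mice (9 transporters in 4 groups), 3 held a mouse whose gap to the nearest other exceeded Dixon's 95% limit, where chance gives about 1 in 20. CD+ABX mouse 5 was the highest of its group for Slc13a1, at 112 CPM against 40.4 to 58.5 CPM in the other 4 mice, and also for Slc5a6, at 56.7 CPM against 32.3 to 37.0 CPM. The same mouse had the highest Slc10a2 of all, at 86.1 CPM. CD mouse 2 was the lowest of its group for Slc26a6, at 236 CPM against 329 to 365 CPM in the other CD mice. It was also the lowest CD mouse for Slc28a2, at 20.8 CPM.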

How the results depend on the processing

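Single-transporter values under the alternatives, 1256 in all, were counted by direction and q alone, without the 2-fold limit. Of these, 1223 kept their direction and side of q = 0.05, 13 lost q under 0.05 and 3 gained it. The other 17 changed sign, each a difference that passed neither as reported nor under the alternative. On either TPM scale these were the interactions of Slc26a3 (0.04) and Slc26a6 (0.12). Of those losses, 11 were of Slc28a1 on TDD in SPF mice, among them limma on log2(TPM + 1) (0.92, q = 0.0587), limma on log2(TPM + 0.1) (1.02, q = 0.054) and the groups compared alone (1.06, q = 0.086). Crossings of the 2-fold limit came in addition. Slc5a6 on TDD in SPF mice kept q under 0.05 but fell below 2-fold with limma on TPM (0.88 and 0.93) and without TDD mouse 4 (0.98). With limma on TPM, Slc5a6 passed for antibiotics on TDD (0.45, q = 0.0321, and 0.47, q = 0.0326), where the median of all genes also shifted by 0.102 and 0.104. Genes called for the diet in SPF mice numbered 300, and 2354 without the fold limit and 146 with log2(TPM + 1), and transporters called 5, and 3 with either TPM scale. For the diet in ABX-treated mice they numbered 54 genes, and 288 without the fold limit, 98 with DESeq2 and 27 with log2(TPM + 1). For antibiotics they numbered 375 on CD and 272 on TDD, and 2083 and 2525 without the fold limit and 137 and 101 with log2(TPM + 1). Genes with an interaction numbered 4, and 0 with RLE scaling, 1 without a filter, 1 with the filter in 5 mice and 51 with DESeq2. The cause of these shifts was not tested.

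Mice with the same number share only that number: over 30 same-number pairs the correlation of deviations was -0.42 to 0.27, and 1 of 20 mice matched its own number best. With a replicate block, the genes called were 30 for the diet in ABX-treated mice and 0 for the interaction, and transporters called and those with q under 0.05 for antibiotics on TDD were 1 each, where they were 2 without it. Slc28a1 was lost in both (1.08, q = 0.0791, on TDD in SPF mice, and 1.17, q = 0.0508, with antibiotics on TDD).

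Leaving out 1 mouse at a time gave 221 (without CD mouse 5) to 371 (CD mouse 2) genes for the diet in SPF mice, with 3 (TDD mouse 4) to 5 transporters called and 4 to 5 with q under 0.05. It gave 26 (CD+ABX mouse 4) to 67 (CD mouse 2) genes for the diet in ABX-treated mice, with 0 to 1 transporters with q under 0.05. For antibiotics it gave 284 to 405 genes on CD, with 3 to 5 transporters called, and 173 (TDD+ABX mouse 1) to 427 (TDD+ABX mouse 5) genes on TDD, with 1 to 2 transporters called and with q under 0.05. Interaction genes ranged from 0 to 14 (CD+ABX mouse 4). Signs also turned without single mice for the diet in ABX-treated mice in Slc28a1 (-0.19 to 0.15) and Slc26a3 (-0.04 to 0.09), for antibiotics on TDD in Slc26a3 (-0.02 to 0.13), and for the interaction in Slc28a2 (-0.81 to 0.08), Slc26a3 (-0.12 to 0.03) and Slc26a6 (-0.11 to 0.06).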
